A study of Mus musculus with 52 samples.

Results

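Tight junctions are the belts of protein that close the space between neighbouring endothelial cells (ECs) or epithelial cells. Claudins and the occludin family, to which tricellulin belongs, span the membrane, with tricellulin and angulins placed where 3 cells meet. Scaffold proteins such as ZO-1, cingulin and paracingulin tie these membrane proteins to the cytoskeleton. ECs of most brain vessels form the blood-brain barrier (BBB), which beta-catenin signalling maintains, whereas capillaries of the pituitary and of the choroid plexus stroma are leaky, and in the choroid plexus the barrier lies in the epithelium. The 8 genes described here are tight junction genes taken by name from a list, out of 49585 genes in the annotation used to quantify the libraries: the claudins Cldn5 and Cldn12, the membrane proteins Ocln (occludin), Marveld2 (tricellulin) and Lsr (angulin-1), and the scaffold genes Tjp1 (ZO-1), Cgn (cingulin) and Cgnl1 (paracingulin). They were followed through all 40 RNA-seq libraries and the 12 ATAC-seq libraries, over 5 tissues.

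Adult male mice were used, with 2 replicate libraries in each of the 26 groups. In 24 RNA-seq libraries, cells of the cerebellum, anterior pituitary and posterior pituitary were sorted into a GFPpos fraction (ECs) and a GFPneg fraction by the Tie2-GFP transgene, a reporter that marks ECs. WT mice of this set carried Tie2-GFP alone, and beta-catenin stabilized mice carried Tie2-GFP, Pdgfb-CreER and BcatEx3fl, in which CreER expressed in ECs removes exon 3 of the beta-catenin gene after 4-hydroxytamoxifen (4HT) and so makes the protein resistant to degradation. The WT sorted mice lacked the Cre and the 4HT, so the effects of stabilized beta-catenin, of Cre and of 4HT cannot be told apart in these libraries. In the other 16 RNA-seq libraries, from cerebral cortex and choroid plexus, WT mice carried RiboTag and Pdgfb-CreER and stabilized mice carried RiboTag, Pdgfb-CreER and BcatEx3fl, and both genotypes received 4HT. RiboTag puts an HA tag on ribosomes of cells with Cre activity, so the Bound libraries hold RNA pulled down with tagged ribosomes and the Input libraries hold RNA of the whole tissue lysate. Pituitaries and choroid plexi of several mice were pooled for a replicate, and recombination by Pdgfb-CreER reaches only part of the ECs, so a stabilized library mixes cells. The ATAC-seq libraries, a measure of open chromatin, came from GFPpos cells of the same 3 sorted tissues and both genotypes. With 2 libraries a group, p-values measure only the spread between these samples, and in bulk RNA fewer cells of a type and less RNA per cell cannot be told apart.

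The RNA-seq libraries held between 6409013 and 37529274 estimated reads. The library titled stabilized anterior pituitary GFPpos replicate 2 carries the posterior lobe in another label field. It was kept as anterior: its gene levels correlated at 0.964 with stabilized anterior replicate 1 and at 0.912 and 0.921 with the stabilized posterior libraries, and the main anterior results are also given without it. As a check of the genotype labels, Slc2a1, the glucose transporter of BBB ECs and a gene that follows beta-catenin signalling, was higher in stabilized ECs of the posterior (log2 fold change 5.78, adjusted p = 1.614e-05) and anterior pituitary (1.88, adjusted p = 0.0285), and in stabilized choroid plexus Bound RNA (2.97, adjusted p = 0.0250). Axin2, a direct target of the pathway, was higher in stabilized cortex Bound RNA (2.66, adjusted p = 0.00119) and posterior pituitary ECs (5.73, adjusted p = 0.0291). Axin2 did not pass in anterior pituitary ECs (3.12, adjusted p = 0.404) or choroid plexus Bound RNA (0.97, adjusted p = 0.128), nor Slc2a1 in cortex Bound RNA (1.17, adjusted p = 0.155), and neither gene passed in cerebellum ECs. Markers of ECs were present in every GFPpos library (10 of 10 listed genes at 1 CPM or more in the posterior pituitary).

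Levels below are CPM, that is a gene's estimated reads scaled to the total of estimated reads assigned to genes, unless TPM, which divides by transcript length and so allows genes to be compared, is named. Differences are log2 fold changes with their standard errors (SE) from edgeR's quasi-likelihood test, with p-values adjusted by Benjamini and Hochberg over all genes tested. A gene was called where the adjusted p was under 0.05 and the change at least 2-fold. Shares of all genes belong to these main edgeR fits. Counts of members by DESeq2, by unadjusted p or under other settings have no such share beside them. All 8 genes passed the filter on low counts in every fit.

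In WT ECs, 6 of the 8 genes were higher in the cerebellum than in the anterior pituitary, and the same 6 were higher than in the posterior pituitary: Cldn5, Ocln, Lsr, Marveld2, Tjp1 and Cgnl1. Of all 17915 genes tested, 3% and 2.3% were called higher in these comparisons. Cldn5, Ocln and Lsr kept their calls in 10 of 10 alternatives in both comparisons. Against the anterior and posterior lobe, Tjp1 kept its call in 9 and 8, Cgnl1 in 7 and 9 and Marveld2 in 7 each. With effective lengths as an offset, only Cldn5, Ocln and Lsr were called against the anterior lobe. The same held against the posterior lobe in the fit on the compared groups alone. The differences were of very unequal size. The genes for the membrane proteins differed by 23.8-fold or more in each comparison, while the scaffold genes Tjp1 and Cgnl1 differed by 2.72- to 3.34-fold and had at least 213 CPM in every EC library.

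Cldn5, the main claudin of brain ECs, stood at 794 and 975 CPM in the WT cerebellum libraries, at 45.6 and 35.2 in the anterior pituitary and at 46.1 and 15.3 in the posterior pituitary. The lowest cerebellum value lay far above the highest pituitary value. The difference was 4.58 (SE 0.51, adjusted p = 0.00011) from the anterior and 4.98 (SE 0.52, adjusted p = 0.0001) from the posterior lobe. Cldn12, a claudin found in many cell types, was level across the tissues, at 18.4 and 11.7 CPM in the cerebellum, 11.2 and 15.9 in the anterior lobe and 14.1 and 22.4 in the posterior lobe, with overlapping ranges.

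Ocln stood at 427 and 472 CPM in WT cerebellum ECs, at 5.05 and 5.18 in the anterior pituitary and at 6.44 and 0.232 in the posterior pituitary, which gave differences of 6.58 (SE 0.88, adjusted p = 0.000471) and 7.19 (SE 0.90, adjusted p = 0.000404), the latter 10.86 without WT posterior replicate 1. Lsr, which places tricellulin at the corners where 3 cells meet, had 330 and 276 CPM in the cerebellum. In the pituitary it was close to absent: 1.27 and 0 CPM in the anterior lobe, 0.383 and 0 in the posterior lobe, where the libraries without a read allow up to 0.101 and 0.174 CPM (3 reads, counting error only). The fitted differences were 8.97 (SE 1.18, adjusted p = 0.000421) and 10.48 (SE 1.29, adjusted p = 0.000361). Without replicate 1 of either lobe the pituitary group held no Lsr read, and the fit, which then depends on its prior count, gave 15.95 in both comparisons. Marveld2 had 44.1 and 39.0 CPM in the cerebellum, between 0.232 and 2.76 in the WT pituitary libraries, and differences of 4.87 (SE 1.25, adjusted p = 0.0414) and 5.08 (SE 1.27, adjusted p = 0.0395). Each Marveld2 call held in 7 of 10 alternatives. Among the losses were those without WT anterior replicate 1 (4.03) and without WT posterior replicate 2 (4.27).

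Among the scaffold genes, Tjp1 stood at 1522 and 1470 CPM in WT cerebellum ECs, 588 and 513 in the anterior and 480 and 460 in the posterior pituitary, so that no ranges overlapped between cerebellum and pituitary. Its differences were 1.55 (SE 0.25, adjusted p = 0.00204) and 1.74 (SE 0.25, adjusted p = 0.00115). Cgnl1 had 1011 and 840 CPM in the cerebellum, 363 and 370 in the anterior and 221 and 392 in the posterior lobe, with differences of 1.44 (SE 0.34, adjusted p = 0.0257) and 1.62 (SE 0.34, adjusted p = 0.0154). The anterior call of Cgnl1 was lost without WT anterior replicate 1 (1.44) or replicate 2 (1.45). Cgn, cingulin, which is abundant in epithelia, reached at most 2.19 CPM in any of the 12 GFPpos libraries. Between the lobes of the WT pituitary none of the 8 genes was called by edgeR (0.994% of all genes were), none had an unadjusted p under 0.05, and DESeq2 called none either.

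Per transcript length, the order in WT cerebellum ECs was Cldn5 (482 ± 40.8 TPM, SD, n = 2), Tjp1 (333 ± 5.7), Ocln (215 ± 11.9), Cgnl1 (93.9 ± 13.6), Lsr (88.7 ± 28.6), Marveld2 (16.7 ± 2.28), Cldn12 (2.98 ± 1.09) and Cgn near 0. Cgnl1 and Lsr did not differ beyond their spread. In the WT anterior lobe Tjp1 came first (113 ± 37.5 TPM), then Cgnl1 (35.0 ± 2.08) and Cldn5 (22.7 ± 1.1). The posterior order was the same at the top, with Tjp1 at 169 ± 122 TPM, Cgnl1 at 30.3 ± 8.05 and Cldn5 at 25.2 ± 17, of which the last 2 overlapped. Part of the Tjp1 and Ocln TPM comes from short transcripts: those under 1 kb held between 36.8% and 86.3% of the Tjp1 TPM in the GFPpos libraries, with a median of 57.8%. Counting only transcripts of at least 1 kb, Tjp1 fell to 135 TPM and Ocln to 110 in WT cerebellum ECs, and Cldn5 stayed first.

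**Figure D1:**
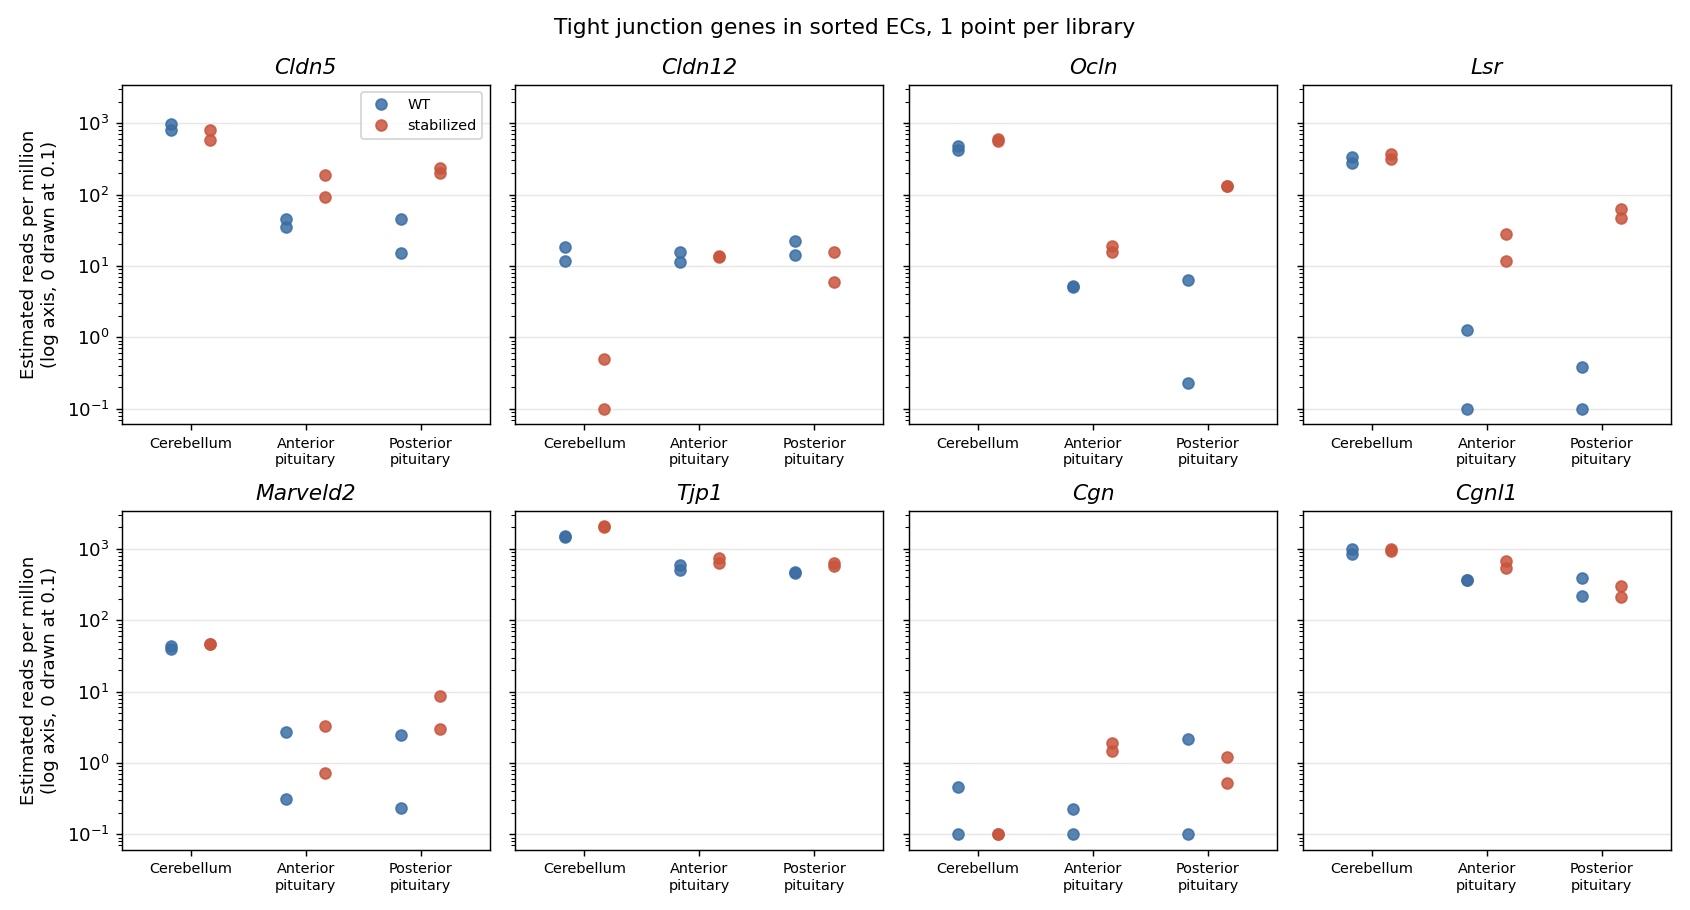
Levels of the 8 tight junction genes in the sorted EC (GFPpos) libraries of cerebellum, anterior pituitary and posterior pituitary, WT and beta-catenin stabilized. Each point is 1 library and the y axis is CPM on a log scale, with 0 drawn at 0.1. Cldn5, Ocln and Lsr sit lowest in the WT pituitary and rise in stabilized posterior pituitary ECs to 200 and 233, 132.5 and 132.0, and 63.6 and 46.5 CPM.

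Cldn5, Ocln and Lsr were higher in beta-catenin stabilized than in WT posterior pituitary ECs, 3 of the 8 genes, against 1.25% of all genes called higher. No member was called lower there. The 3 genes that rose all encode membrane proteins that were higher in cerebellum than in pituitary ECs, and the scaffold genes Tjp1 and Cgnl1 did not pass the test.

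Cldn5 had 46.1 and 15.3 CPM in WT and 200 and 233 CPM in stabilized posterior pituitary ECs, so every stabilized library lay above every WT library. The difference was 3.10 (SE 0.48, adjusted p = 0.00595). Ocln went from 6.44 and 0.232 to 132.5 and 132.0 CPM, a difference of 5.58 (SE 0.84, adjusted p = 0.00514). Lsr went from 11 and 0 estimated reads (0.383 and 0 CPM) to 1414 and 1139 reads (63.6 and 46.5 CPM), with a fitted difference of 8.18 (SE 1.21, adjusted p = 0.00451). Lsr kept its call in 10 of 10 alternative analyses, Cldn5 and Ocln in 9 of 10 each. The exception was the fit on the posterior pituitary libraries alone, in which Cldn5 (adjusted p = 0.0811) and Ocln (adjusted p = 0.157) did not pass. The size of the Ocln difference turned on the WT libraries, which differed widely: it was 4.70 without WT replicate 2 and 9.27 without WT replicate 1. Without WT replicate 1 no WT read of Lsr was left, and its fitted value, which then depends on the prior count, was 13.67.

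The other members moved less in posterior pituitary ECs. Marveld2, the partner of Lsr at tricellular contacts, had 2.44 and 0.232 CPM in WT and 8.73 and 3.02 in stabilized libraries, which did not overlap but did not pass the test. Tjp1 had 480 and 460 against 582 and 643 CPM, a difference of 0.61 (SE 0.25, adjusted p = 0.301). Cgnl1 (221 and 392 against 213 and 299 CPM) and Cldn12 (14.1 and 22.4 against 15.4 and 5.96 CPM) overlapped between genotypes. Over the 8 genes the median difference was 1.51, beside 0.01 over all genes tested. The members were chosen with earlier results of these data known, so this gap is no independent support. In the same libraries the summed level of 10 endothelial markers was 13970 and 13010 CPM in WT and 5639 and 6030 in stabilized ECs. The sum of 5 microglial markers was 2.72 and 0.464 CPM in WT, where 1 and 0 of the 5 reached 1 CPM, and 189 and 156 in stabilized libraries, where all 5 did. The part of these shifts in the results was not tested.

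In anterior pituitary ECs the same genes stood higher in the stabilized libraries, but no member was called by edgeR (0.458% of all genes were called). Unadjusted p was under 0.05 for 4 of them, Cldn5, Ocln, Lsr and Cgnl1, and DESeq2 called 1, Cldn5. Cldn5 had 45.6 and 35.2 CPM in WT and 93.8 and 188 in stabilized libraries, a difference of 1.82 (SE 0.45, adjusted p = 0.151) that was called in 3 of 10 alternatives. Ocln had 5.05 and 5.18 against 15.6 and 19.2 CPM (1.77, SE 0.72, adjusted p = 0.640). Lsr had 40 and 0 reads (1.27 and 0 CPM) in WT against 292 and 643 reads (11.7 and 27.7 CPM) in stabilized ECs, a difference of 4.95 (SE 1.01, adjusted p = 0.0627) that was called in 7 of 10 alternatives. Without WT replicate 1, which held all WT reads of Lsr, it was fitted at 11.93, a value that depends on the prior count. For each of these genes both stabilized libraries lay above both WT libraries.

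Without the library that carries labels of both lobes, Lsr was the only member called in anterior pituitary ECs (4.10). That fit leaves 1 stabilized anterior library, which is assumed to vary like the other groups. Cldn5 was then at 1.14 (adjusted p = 0.350) and Ocln at 1.53 (adjusted p = 0.265). Tjp1 (588 and 513 against 643 and 749 CPM) differed by 0.34 and Cgnl1 (363 and 370 against 534 and 681 CPM) by 0.73 (SE 0.34, adjusted p = 0.698). The median over the 8 genes, chosen with earlier results of these data known, was 1.25, beside 0.06 over all genes. The sum of the microglial markers was 6.79 and 1.68 CPM in WT and 108 and 235 in stabilized anterior libraries, while endothelial markers summed to 10130 and 11070 against 11310 and 8971 CPM, and the part of the former in the results was not tested.

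Whether the posterior lobe responded more than the anterior was asked of each gene as a difference of the responses. None of the 8 was called by edgeR (0.128% of all genes were) or by DESeq2, and 2 had an unadjusted p under 0.05, Ocln and Lsr. The difference of responses was 3.82 for Ocln (SE 1.02, adjusted p = 0.259, called in 5 of 14 alternatives, 2.93 without WT posterior replicate 2 and 7.49 without WT posterior replicate 1), 3.24 for Lsr (SE 1.44, adjusted p = 0.541) and 1.28 for Cldn5 (SE 0.62, adjusted p = 0.568). Without the anterior library that carries labels of both lobes, Ocln (4.09) and Lsr (4.12) were called and Cldn5 was at 1.99, with 1 stabilized anterior library left. The Lsr value over all libraries rested on WT anterior replicate 1, the only WT anterior library with Lsr reads. Without it the fit depends on the prior count, and its value (-3.72) is no measured reversal.

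In cerebellum ECs, where these genes were already high, stabilization led to no call by edgeR among the 8 genes (0.648% of all genes were called). Cldn5 had 794 and 975 CPM in WT and 810 and 574 in stabilized libraries (-0.37, SE 0.44), and Ocln had 427 and 472 against 591 and 570 CPM (0.37, SE 0.69). Lsr (330 and 276 against 315 and 365 CPM) and Cgnl1 (1011 and 840 against 1008 and 942) overlapped between genotypes, and Marveld2 had 44.1 and 39.0 against 47.3 and 47.2 CPM. Tjp1 had 1522 and 1470 against 2006 and 2089 CPM (0.46, SE 0.25). The exception in size was Cldn12, which had 612 and 328 reads (18.4 and 11.7 CPM) in WT and 14 and 0 reads (0.497 and 0 CPM) in stabilized cerebellum ECs. It was the 1 member with an unadjusted p under 0.05 and the 1 that DESeq2 called. Its difference of -5.88 (SE 1.30, adjusted p = 0.0748) was called in 5 of 10 alternatives, among them the fits without WT replicate 2 (-6.09), stabilized replicate 1 (-11.63, against no reads, so that it depends on the prior count) and stabilized replicate 2 (-4.93). In the GFPneg cells of the same cerebella Cldn12 had 34.7 and 14.1 CPM in WT and 7.27 and 9.15 in stabilized mice.

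**Figure D2:**
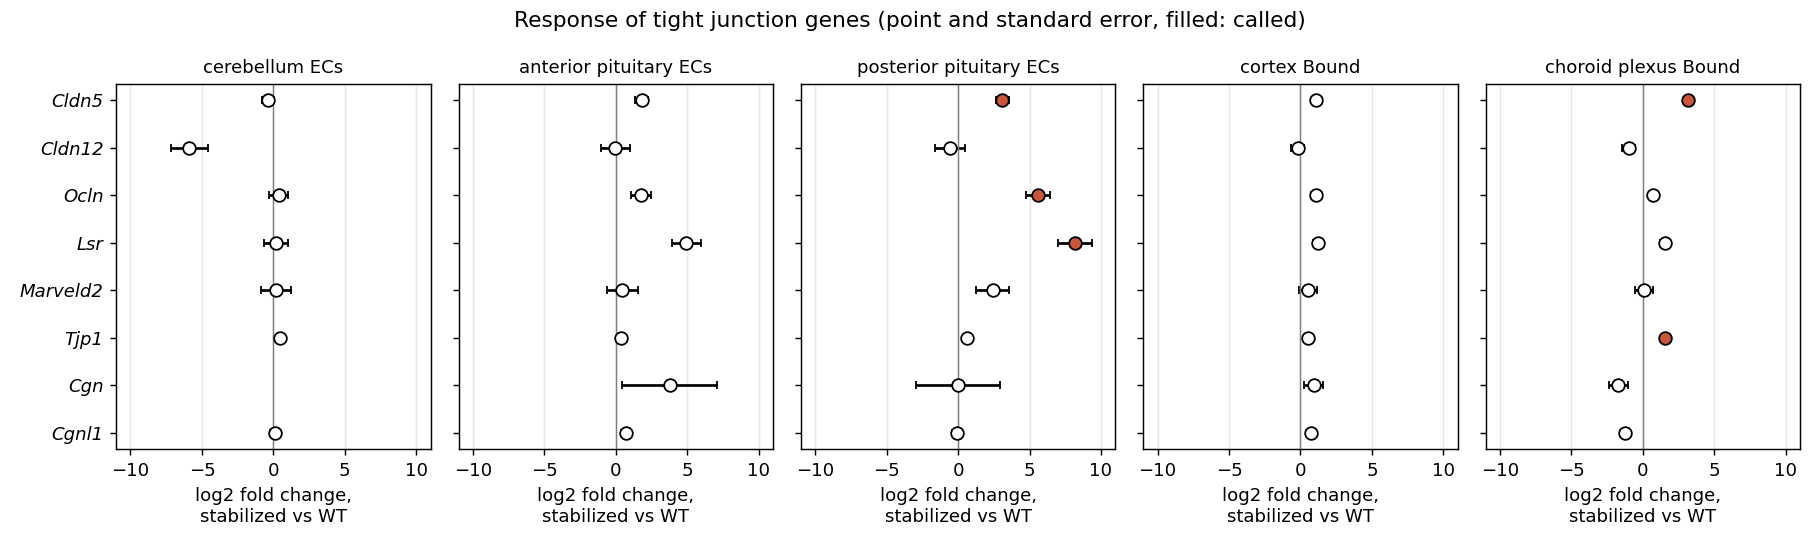
Differences between stabilized and WT libraries for the 8 genes in sorted ECs of 3 tissues and in Bound RNA of cortex and choroid plexus. The x axis is the log2 fold change, the bars are the SE of the fit with 2 libraries a group, and filled points are calls. Cgn in the cerebellum, with 0 reads in both stabilized libraries, is left out. Cldn5, Ocln and Lsr are called in posterior pituitary ECs (3.10, 5.58 and 8.18) and Cldn5 and Tjp1 in choroid plexus Bound RNA (3.19 and 1.52).

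Stabilized pituitary ECs stayed below WT cerebellum ECs in several members. In the posterior lobe Cldn5 (-1.88, SE 0.45, adjusted p = 0.0411), Tjp1 (-1.13, SE 0.25, adjusted p = 0.0265) and Cgnl1 (-1.68, SE 0.34, adjusted p = 0.0172) were called lower than in WT cerebellum ECs, against 1.54% of all genes. Ocln (-1.61, SE 0.70, adjusted p = 0.340) and Lsr (-2.30, SE 0.86, adjusted p = 0.234) also stood lower without passing the test. Leaving out single libraries left between 0 and 2 of these calls, and none without stabilized posterior replicate 1. In the anterior lobe Cldn5 (-2.76, adjusted p = 0.00398), Ocln (-4.81, adjusted p = 0.00363), Lsr (-4.03, adjusted p = 0.0270) and Tjp1 (-1.22, adjusted p = 0.0137) were called lower, against 1.9% of all genes. The Tjp1 call was lost without stabilized anterior replicate 1 (-1.03), and without the library that carries labels of both lobes these 4 genes kept their calls (-3.44, -5.04, -4.88 and -1.41). Per transcript length, stabilized posterior pituitary ECs had Cldn5 first (123 ± 16.6 TPM), then Tjp1 (99.3 ± 2.71), Ocln (54.6 ± 1.72), Cgnl1 (20.8 ± 4.96) and Lsr (12.1 ± 1.89). Cldn5 and Ocln thus moved to the first and the third place, as in WT cerebellum ECs, at lower TPM.

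The sorted fractions place these genes among the cells of each tissue. In the WT cerebellum Cldn5 (8.46, SE 2.14, adjusted p = 0.0131), Lsr (6.73, SE 1.56, adjusted p = 0.00725), Ocln (3.86, SE 0.75, adjusted p = 0.00202), Cgnl1 (3.83, SE 0.81, adjusted p = 0.00364) and Tjp1 (2.54, SE 0.31, adjusted p = 2.969e-05) were higher in GFPpos than in GFPneg cells, 5 of 8 against 4.46% of all genes. The cerebellum GFPneg libraries were unlike each other, with 0 and 4.04 CPM of Cldn5 and 15.3 and 91.2 of Cgnl1, and without GFPneg replicate 2 the Cgnl1 difference was 6.02. The Lsr value was then 11.72, against a GFPneg library with 3 reads, and that of Cldn5 17.62, against none. A fitted value against a group without reads depends on the prior count and is no measure of size, here and below. In the pituitary the members went in both directions. Tjp1 was again higher in ECs, by 2.33 (SE 0.31, adjusted p = 6.49e-05) in the anterior and 2.16 (SE 0.31, adjusted p = 8.035e-05) in the posterior lobe, where 5.46% and 7.07% of all genes were called higher. In the posterior lobe Cldn5 (8.43, SE 2.37, adjusted p = 0.0203) and Cgnl1 (4.09, SE 0.82, adjusted p = 0.00173) were higher in ECs too, the Cldn5 call being lost without GFPneg replicate 1 (7.30), while without GFPneg replicate 2, which leaves no GFPneg reads, it was fitted at 12.65.

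Lsr and Cgn had the opposite place in the WT pituitary, lower in ECs than in the other cells, as was Ocln in the posterior lobe (5.87% and 7.45% of all genes were called lower in the anterior and posterior lobe). WT GFPneg cells of the anterior lobe had 96.7 and 72.7 CPM of Lsr and 33.0 and 20.0 of Cgn, and those of the posterior lobe 22.2 and 22.5 of Lsr, 99.1 and 47.9 of Cgn and 19.6 and 33.3 of Ocln. Lsr differed by -6.95 (adjusted p = 0.00689) and -6.67 (adjusted p = 0.00885), Cgn by -7.68 (adjusted p = 0.0275) and -6.13 (adjusted p = 0.0474), and Ocln in the posterior lobe by -3.00 (adjusted p = 0.00794), or -6.50 without posterior GFPpos replicate 1. The Cgn calls were lost without WT anterior GFPpos replicate 1 (-6.57), without posterior GFPneg replicate 1 (-5.28) and without posterior GFPpos replicate 2 (-5.13). Leaving out the GFPpos library that held all EC reads of a gene gave -12.2 for Cgn (anterior replicate 2) and -13.79 (posterior replicate 1), and for Lsr -13.87 and -12.05 (replicate 1 of each lobe).

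Since GFPneg pituitary cells carried Lsr RNA, their levels are given beside the change in ECs. In stabilized mice GFPneg cells had 26.5 and 30.1 CPM of Lsr in the anterior and 10.9 and 9.97 in the posterior lobe, below the WT values above. The 63.6 and 46.5 CPM of stabilized posterior ECs lie above every posterior GFPneg library, whereas the 11.7 and 27.7 CPM of stabilized anterior ECs do not exceed the anterior GFPneg range. Cgn, at 18.2 and 10.8 CPM in the stabilized posterior GFPneg cells, stayed at 1.23 and 0.531 CPM in the matching ECs. Summed endocrine markers in posterior ECs were 2716 and 430 CPM in WT and 294 and 668 in stabilized libraries. In GFPneg cells no member was called between genotypes in any of the 3 tissues by edgeR, where 0.76% (cerebellum), 0.0408% (anterior) and 0.133% (posterior) of all genes were. Unadjusted p was under 0.05 for 2 genes in the cerebellum (Cldn12 and Cgn), of which DESeq2 called Cgn, and for none in the pituitary, where DESeq2 called none.

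In the RiboTag libraries, Cldn5 and Tjp1 were higher in stabilized than in WT choroid plexus Bound RNA, 2 of the 8 genes against 0.656% of all genes called higher. Cldn5 rose from 21.3 and 25.0 to 226 and 255 CPM, a difference of 3.19 (SE 0.32, adjusted p = 0.00371), and Tjp1 from 201 and 200 to 638 and 673 CPM, 1.52 (SE 0.24, adjusted p = 0.0250). The Cldn5 call held without each library in turn. The Tjp1 call was lost on leaving out any of them (without WT replicate 1 1.54, WT replicate 2 1.55, stabilized replicate 1 1.67, stabilized replicate 2 1.45).

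Lsr was also well separated in choroid plexus Bound RNA, at 34.3 and 39.9 CPM in WT and 122 and 129 in stabilized libraries (1.57, SE 0.35, adjusted p = 0.0927). Ocln had 68.5 and 51.8 against 149 and 80.7 CPM (0.73, SE 0.33). Of the scaffold genes, Cgnl1 and Cgn stood the other way from Tjp1: Cgnl1 had 3959 and 3886 CPM in WT and 2061 and 1661 in stabilized libraries (-1.27, SE 0.32, adjusted p = 0.121), and Cgn 202 and 216 against 79.4 and 65.8 CPM (-1.72, SE 0.67, adjusted p = 0.297). Neither passed the test. DESeq2 called 4 members, Cldn5, Lsr, Tjp1 and Cgnl1. In these Bound libraries 7 choroid plexus epithelium markers summed to 42620 and 41600 CPM in WT and 30220 and 25200 in stabilized mice, and the 10 endothelial markers to 1815 and 2259 against 3393 and 2809 CPM. Bound RNA of the choroid plexus therefore held more epithelial than endothelial marker RNA in both genotypes, and the part of the shift between them in these results was not tested.

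In reads of cortex Bound RNA, Cldn5, Ocln and Lsr stood at least 2-fold higher in stabilized mice, without a call by edgeR (6.32% of all genes were called). With effective lengths as an offset the Cldn5 difference turned to -0.27, and those of Ocln and Lsr were 0.69 and 0.75. Unadjusted p was under 0.05 for 4 genes and DESeq2 called 3, Cldn5, Ocln and Lsr. Cldn5 had 194 and 95.8 CPM in WT and 314 and 305 in stabilized libraries (1.09, SE 0.30, adjusted p = 0.0621). Ocln had 142 and 81.2 against 228 and 242 CPM (1.07, SE 0.33, adjusted p = 0.0881), and Lsr 116 and 46.6 against 187 and 183 CPM (1.19, SE 0.35, adjusted p = 0.0745). Tjp1 had 381 and 454 against 556 and 656 CPM (0.50, SE 0.24) and Cgnl1 150 and 71.8 against 172 and 197 CPM (0.74, SE 0.32, adjusted p = 0.212).

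The WT cortex Bound libraries were unlike each other, replicate 1 lying closer to the stabilized values than replicate 2 for Cldn5, Ocln, Lsr and Cgnl1. Without WT replicate 1, Cldn5 (1.59), Ocln (1.43), Lsr (1.89) and Cgnl1 (1.26) were all called. The 10 endothelial markers moved in the same way, with sums of 1731 and 733 CPM in WT and 1991 and 2104 in stabilized libraries, while neuronal markers summed to 2333 and 2635 against 1118 and 1108 CPM, and their part in the results was not tested.

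**Figure D3:**
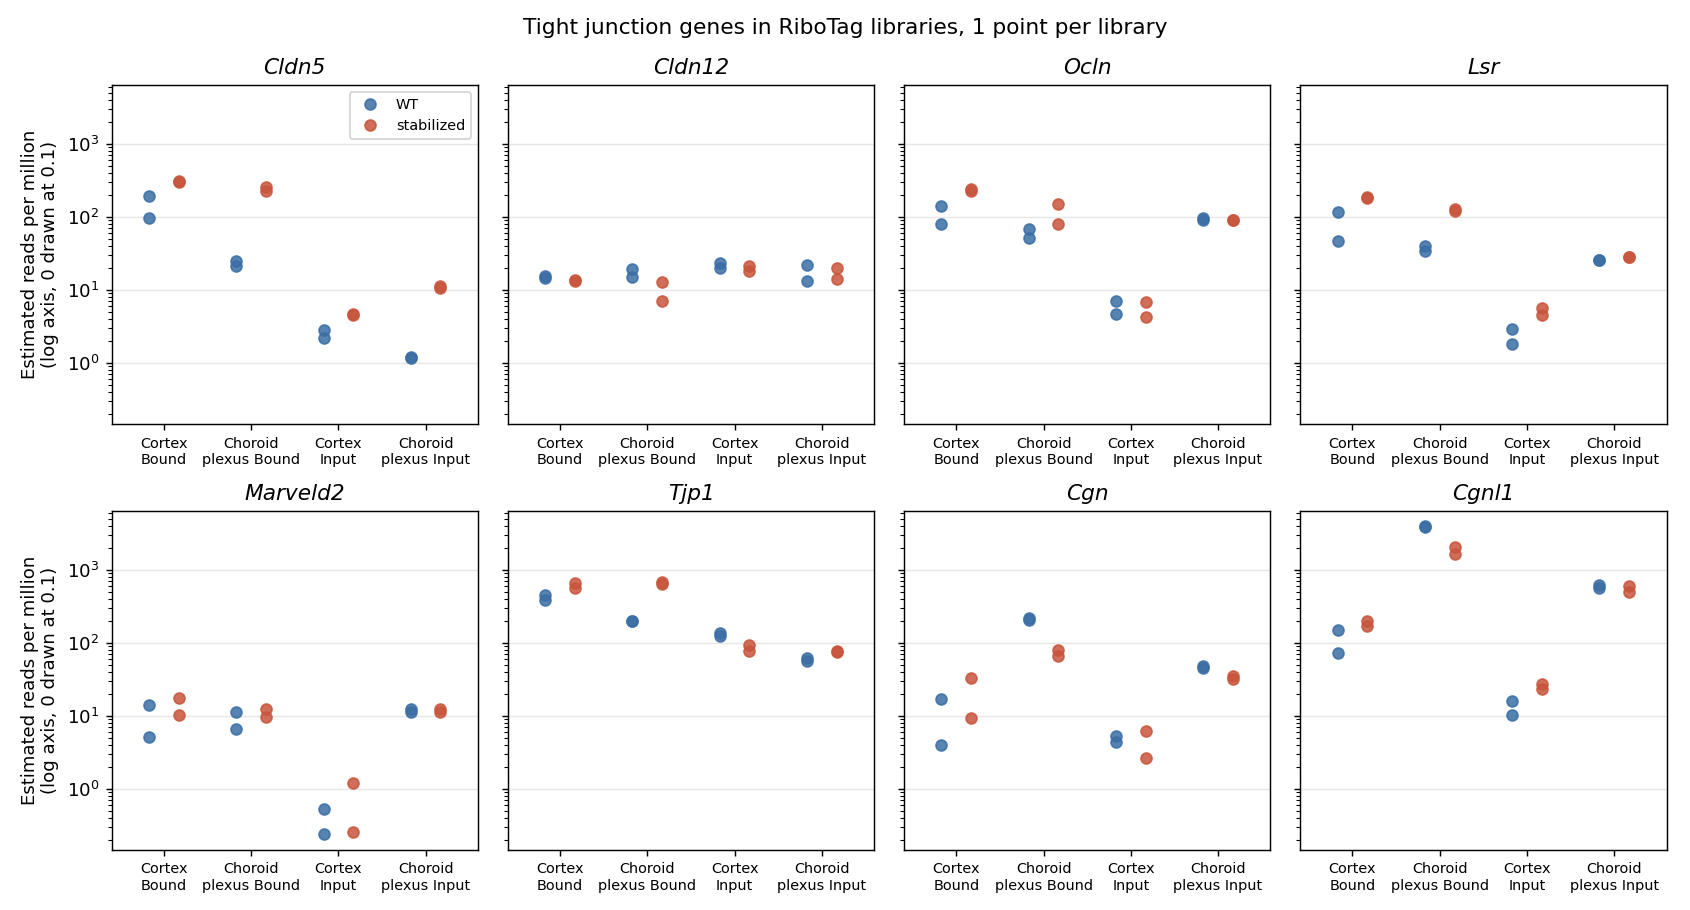
Levels of the 8 genes in RiboTag Bound and Input libraries of cortex and choroid plexus, WT and stabilized, as CPM on a log scale (0 drawn at 0.1) with 1 point a library. Cldn5 rises from 21.3 and 25.0 to 226 and 255 CPM in choroid plexus Bound RNA, while Cgnl1 is highest there in WT, at 3959 and 3886 CPM.

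The gain of Cldn5 with stabilization was larger in choroid plexus than in cortex Bound RNA by 2.09 (SE 0.43, adjusted p = 0.0428), the 1 member for which the difference of responses was called higher (0.864% of all genes were). The call was lost with the replicate number as a block (2.08, adjusted p = 0.0605) and without stabilized cortex replicate 1 (2.22) or 2 (2.06), WT choroid plexus replicate 1 (1.98) or 2 (2.21), or stabilized choroid plexus replicate 2 (1.96). The difference of responses was 1.01 for Tjp1 (adjusted p = 0.161) and -2.01 for Cgnl1 (SE 0.45, adjusted p = 0.0573).

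WT cortex and choroid plexus Bound RNA differed in 5 of the 8 genes. Cldn5 (2.62, SE 0.32, adjusted p = 0.000332), Lsr (1.10, SE 0.35, adjusted p = 0.0381) and Tjp1 (1.07, SE 0.24, adjusted p = 0.00855) were higher in the cortex, against 15.8% of all genes. Cgn (-4.25, SE 0.75, adjusted p = 0.00241) and Cgnl1 (-5.17, SE 0.38, adjusted p = 3.065e-05) were lower there, against 13.9% of all genes. The Lsr call was lost without WT cortex replicate 1 (0.41) or WT choroid plexus replicate 1 (0.87) or 2 (1.14). Tjp1 no longer passed without WT cortex replicate 2 (0.80) or WT choroid plexus replicate 1 (0.96) or 2 (1.0). Per transcript length, Cgnl1 came first in WT choroid plexus Bound RNA (743 ± 70.5 TPM), far above Tjp1 (32.8 ± 7.53), Cgn (15.5 ± 1.53) and Ocln (15.4 ± 9.79), of which the last 2 did not differ beyond their spread. In WT cortex Bound RNA the order was Tjp1 (170 ± 49.9 TPM), Cldn5 (140 ± 56.5), Ocln (62.3 ± 21.3), Lsr (40.3 ± 21.6) and Cgnl1, and the libraries of Tjp1 and Cldn5 overlapped, as did those of Ocln and Lsr. These orders rest in part on transcripts under 1 kb, which held 72.2% and 78.3% of the Tjp1 TPM in the WT cortex Bound libraries and 70.4% and 63.5% of the Cgnl1 TPM in those of the choroid plexus. Counting only transcripts of at least 1 kb, Cldn5 came first in the cortex (140 TPM), and Tjp1 (41.0) came after Ocln. That Cldn5 value rests on effective lengths of 590 to 715 bases in WT cortex libraries, for a transcript of 1414 bases. In the choroid plexus Cgnl1 stayed first at 244 TPM, and Tjp1 (10.9) came after Cgn (15.5).

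Bound RNA was set against Input of the same tissue to see which genes the pull-down enriches. In the WT cortex 6 of 8 members were higher in Bound RNA (7.46% of all genes were): Cldn5 by 5.57, Lsr by 4.81, Marveld2 by 4.32, Ocln by 3.99, Cgnl1 by 2.80 and Tjp1 by 1.48, the largest adjusted p being 0.00102. In the WT choroid plexus Cldn5 (3.86, adjusted p = 6.277e-06), Cgnl1 (2.29, adjusted p = 0.0001007) and Tjp1 (1.32, adjusted p = 0.000393) were higher in Bound RNA (8.67% of all genes were) and Ocln was lower (-1.09, adjusted p = 0.0189, 6.64% of all genes were). The Ocln call was lost without Input replicate 1 (-1.20) or 2 (-1.09) or Bound replicate 2 (-1.03). Cgn, at 202 and 216 CPM in Bound and 45.5 and 47.8 in Input, did not pass (1.73, adjusted p = 0.0671), but was called with Bound and Input of a replicate taken as a pair (1.73, adjusted p = 0.0137).

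In read counts, the Input libraries gave the same direction for Cldn5 in whole tissue. In choroid plexus Input it rose from 1.16 and 1.19 to 10.6 and 11.5 CPM with stabilization (3.12, SE 0.30, adjusted p = 0.0203), the 1 member called where 0.0995% of all genes were called higher, and the call was lost without WT replicate 1 (3.10), WT replicate 2 (3.12) or stabilized replicate 2 (3.06). The 10 endothelial markers summed to 172 and 167 CPM in WT and 211 and 200 in stabilized choroid plexus Input. In cortex Input Cldn5 (2.79 and 2.22 against 4.49 and 4.63 CPM, 1.0, adjusted p = 0.0293), Lsr (2.93 and 1.80 against 4.49 and 5.57 CPM, 1.23, adjusted p = 0.0139) and Cgnl1 (10.2 and 16.1 against 27.5 and 23.2 CPM, 1.11, adjusted p = 0.0102) were called higher, against 8.44% of all genes, while endothelial markers summed to 49.3 and 40.8 CPM in WT and 124 and 120 in stabilized libraries.

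These cortex Input calls were not stable, and with effective lengths as an offset the Cldn5 difference turned to -0.27. Cldn5 held its call in 1 of 10 alternatives and was not called by DESeq2, which called Lsr and Cgnl1. It was lost without WT replicate 2 (0.81) or stabilized replicate 1 (1.01) or 2 (1.0), and likewise Lsr without WT replicate 2 (0.89) or stabilized replicate 2 (1.08), and Cgnl1 without WT replicate 1 (0.84) or stabilized replicate 1 (0.96). Tjp1 was lower in stabilized cortex Input by less than 2-fold (-0.45, adjusted p = 0.0298).

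The direction in the cortex depended for some members on whether reads or TPM were compared. Cldn5 in cortex Bound RNA had more reads in stabilized mice but fewer TPM, 180 and 99.8 in WT against 60.1 and 53.9 in stabilized libraries. The effective length that the quantification assigned to Cldn5 was 590 to 715 bases in the WT cortex libraries and 1539 to 1942 in the stabilized ones, and 1266 to 1563 and 1376 to 1545 in those of the choroid plexus. Cldn5 has 1 quantified transcript, of 1414 bases, so these values are not lengths of different transcripts. Those of the stabilized cortex exceed the whole transcript, and Cldn5 TPM in the cortex rests on them. For Cgnl1 the lengths went the other way, from 5039 to 6061 in WT to 1084 to 2335 bases in stabilized cortex, and the offset raised its Bound difference to 3.04. In cortex Input, Cldn5 had 2.18 and 1.80 TPM in WT against 0.599 and 0.509 in stabilized libraries, and Lsr 1.17 and 0.794 against 0.516 and 0.570 TPM, so both were lower in TPM without overlap. The fitted Lsr difference in cortex Input stayed positive over 10 alternatives, the offset included (0.71 to 1.67). In cortex Bound RNA the TPM of Lsr, Ocln and Tjp1 overlapped between genotypes, and their differences with the offset stayed positive (0.75, 0.69 and 0.72). Marveld2 had 8.90 and 3.20 TPM in WT against 2.1 and 1.73 in stabilized libraries. Of the genes compared, 40.5% in cortex Bound and 37.7% in cortex Input had effective lengths more than 1.5-fold apart between genotypes, against 7.83 to 26.1% in the other tissues and fractions. What moved the lengths was not tested.

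**Figure D4:**
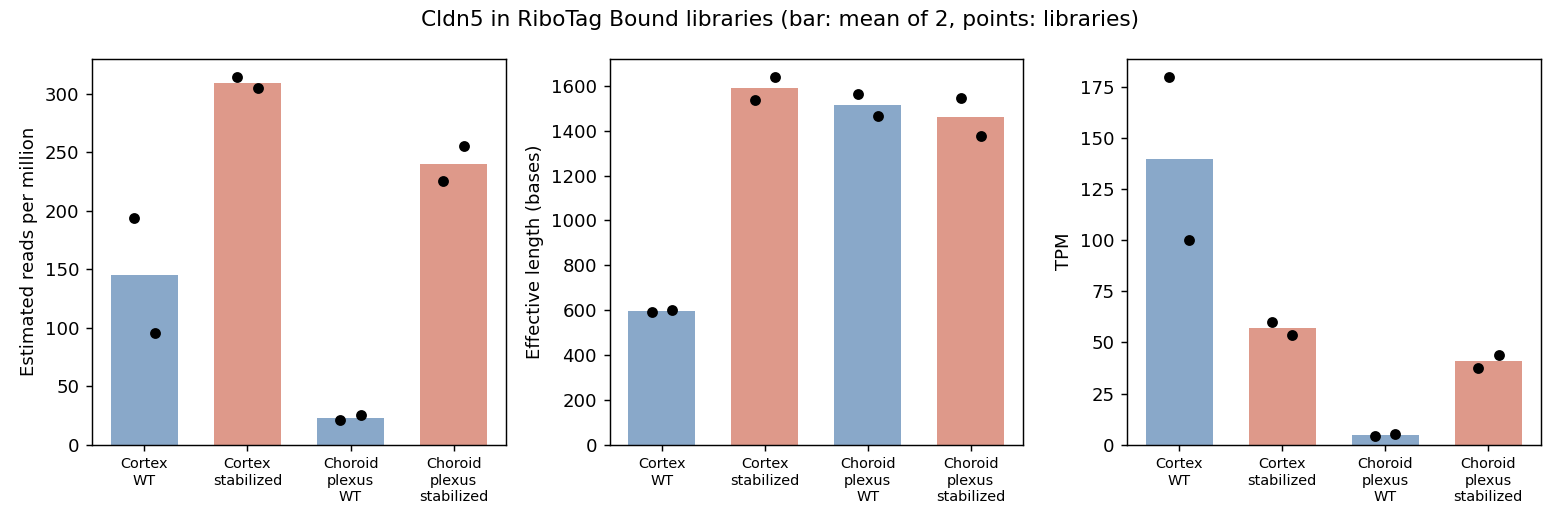
Cldn5 in Bound RNA of cortex and choroid plexus in CPM, effective length in bases and TPM, with 1 point a library and bars for the mean of 2. In the choroid plexus both units are higher in stabilized libraries, whereas in the cortex CPM is higher (194 and 95.8 against 314 and 305) and TPM lower (180 and 99.8 against 60.1 and 53.9).

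Over the 12 GFPpos libraries the members were compared by their pattern of log2(TPM + 1), described by Pearson's r across libraries that share tissue and genotype. Cldn5, Ocln and Lsr correlated with each other at 0.940 to 0.975, and Marveld2 with these at 0.895 to 0.909 and with Tjp1 and Cgnl1 at 0.748 and 0.727. Tjp1 and Cgnl1 correlated at 0.873, and Cldn12 correlated negatively with 6 members (-0.431 to -0.683) and positively with Cgn (0.396). Among 8531 genes, the 3 most like Cldn5 were Lsr (0.975), Tcf7 (0.969) and St6gal1 (0.969). Those most like Lsr were Slc35f2 (0.988), Tcf7 (0.985) and Maoa (0.980), and those most like Ocln were Degs2 (0.985), Sgpp2 (0.982) and Pllp (0.980). The nearest to Marveld2 were Rab11fip1 (0.974), Bsg (0.963) and Cdkn2b (0.960), to Tjp1 Jcad (0.929), Tmem245 (0.929) and Hipk3 (0.921), and to Cgnl1 Slc16a1 (0.939), Zswim9 (0.925) and Gucy1b1 (0.925). The genes nearest to Cldn12 (Rpl39, Gm14303 and Npdc1, 0.881 to 0.890) and Cgn (Synj1, Gm44427 and Snora30, 0.889 to 0.898) were less alike than those of Cldn5, Ocln and Lsr. With a pseudocount of 0.1, none of the 3 genes named for Marveld2 was among its nearest 3. Without the TPM minimum, none of the 3 named for Cgn was. In both settings every other member shared at least 1.

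A list of 52 other tight junction genes was read through the same fits. The list and the 8 members were chosen with earlier results of these data known, so a contrast between them is no independent support. With stabilization, none of the 42 tested was called by edgeR in cerebellum or anterior pituitary ECs, and 1 was called, higher, in posterior pituitary ECs (beside 0.648, 0.458 and 1.25% of all genes), with a median difference of -0.14 over the list beside 1.51 over the 8 members. That gene was Igsf5, which encodes a junctional adhesion molecule and had 0 reads in both WT and 2.22 ± 2.12 CPM in stabilized libraries. It is named after its values were seen. In the choroid plexus Bound libraries none of 36 was called (0.656% of all genes were called higher) and in the cortex 1 was, lower, beside 6.32% of all genes called there in either direction.

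Between WT tissues, 4 of 42 genes were higher and 1 lower in cerebellum than in anterior pituitary ECs, and as many in the comparison with the posterior lobe, where 3% and 2.3% of all genes were called higher and 2.26% and 2.1% lower. The gene called lower was Jam3, a junctional adhesion molecule, at 10.6 ± 0.228 CPM in the cerebellum against 228 ± 5.34 in the anterior pituitary (-4.31, SE 0.91, adjusted p = 0.0135) and 238 ± 131 in the posterior pituitary (-4.37, SE 0.92, adjusted p = 0.0146). Pard3, a polarity gene, was higher in the cerebellum than in the posterior lobe by 2.26 (adjusted p = 0.0128). Between WT cortex and choroid plexus Bound RNA, 5 of 36 were higher and 12 lower in the cortex, beside 15.8% and 13.9% of all genes. Cldn1 (-6.46), Cldn2 (-4.04), which forms cation pores in epithelia, and Tjp3 (-10.1) were lower, and Cldn11, a claudin of myelin, was higher (3.63, adjusted p = 0.0112). Esam, an adhesion molecule of ECs, was higher in GFPpos than in GFPneg cells in the cerebellum (6.34), anterior (5.49) and posterior pituitary (13.04). Of 46 listed genes tested between these fractions, 8 were higher and 4 lower in cerebellum GFPpos cells. In the anterior lobe 12 were higher and 4 lower, and in the posterior lobe 7 and 6. Of all genes, 4.46, 5.46 and 7.07% were called higher in these tissues in turn. In the anterior and posterior lobe 5.87 and 7.45% were called lower. The share called lower in the cerebellum is not given, so the 4 listed genes lower there cannot be set against it.

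ATAC-seq peaks called in both replicates of a group were compared between genotypes within 50 kb of the member genes, which gave 80 different sites. The peak lists hold no read counts, so a site is described by its fold enrichment over background in each replicate, and no test was made. The lists differ in length, with 26394 and 24020 regions in WT against 33514 and 31669 in stabilized cerebellum ECs, 36860 and 45040 against 40071 and 42621 in the anterior and 21050 and 20634 against 28926 and 38583 in the posterior lobe, and the part of list length in the gained sites was not tested. A site was called gained where both stabilized replicates and neither WT replicate held it. In posterior pituitary ECs 15 of the 38 sites near members in stabilized ECs were gained, beside 28.5% of all regions. In the anterior lobe 9 of 50 were (7.67% of all regions) and in the cerebellum 9 of 63 (17.9%). On leaving out single libraries these numbers were highest at 27 without stabilized posterior replicate 1 and 14 without WT anterior replicate 2. Leaving out a library loosens the rule for a gained site, so these numbers could hardly fall. Sites were lost only in the anterior lobe, 2 of 40 beside 5.72% of all regions: 43.1 kb upstream of Marveld2, in an intron of Ak6 (fold enrichment 3.93 and 5.71), and 104 kb inside Tjp1 (4.01 and 4.30).

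The sites gained near members in the pituitary lay mostly where WT cerebellum ECs held a peak. Of the 15 sites gained near members in the posterior lobe, 11 were held by both WT cerebellum libraries, beside 32.3% of all gained sites, and of the 9 in the anterior lobe 7 were, beside 20.7%. Of the 7 sites gained in both lobes all were, beside 46.6% of the 946 such sites. They lay near Ocln (2), Lsr (1), Tjp1 (3) and Cgnl1 (1). Marveld2 shares its neighbourhood with Ocln on chromosome 13, so the Ocln sites lie in its window too.

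Around Ocln (chr13:100496507-100552718, minus strand, GRCm38) a site 25.2 kb upstream of the start had fold enrichments of 10.5 and 8.55 in WT cerebellum ECs, no peak in WT pituitary, and 7.56 and 7.28 in stabilized anterior and 7.14 and 7.95 in stabilized posterior ECs. A site 13.1 kb upstream had 8.26 and 6.53 in the WT cerebellum and 3.41 and 3.64 (anterior) and 4.78 and 3.66 (posterior) after stabilization. Both lie between genes. Sites gained only in the posterior lobe lay 36.3 kb inside Ocln, in an intron (5.43 and 5.34), and 47.9 kb upstream, in a coding exon of Marveld2 (4.34 and 5.20). The first of these was the strongest peak near Ocln in the WT cerebellum (12.3 and 9.30). At the Ocln start itself both replicates held a peak in WT cerebellum only, and in stabilized ECs of all 3 tissues.

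Around Lsr (chr7:30957770-30973464, minus strand) the site gained in both lobes lay in an intron 4.07 kb inside the gene, with 8.05 and 7.29 in the WT cerebellum, 5.14 and 5.29 in stabilized anterior and 5.93 and 4.36 in stabilized posterior ECs. The Lsr start, beside an exon of Fam187b, was open in all 12 libraries, including the WT pituitary libraries with few or no Lsr reads. A site 18.8 kb upstream was in no WT library and appeared in stabilized cerebellum (5.31 and 5.48) and anterior pituitary ECs (3.90 and 3.38) and in 1 of the 2 stabilized posterior libraries (5.21).

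Around Tjp1 (chr7:65296165-65527781, minus strand) the sites gained in both lobes lay in introns. Distances are from the outer end of the annotated gene, where no pituitary library held a peak. A peak held by all 12 libraries lay 156.8 kb inside the gene, at the RefSeq promoter window (chr7:65371195-65371494). The sites gained in both lobes lie upstream of that window. The one 10.6 kb inside the gene had 9.17 and 9.43 in the WT cerebellum, 10.9 and 11.2 in stabilized anterior and 7.23 and 8.79 in stabilized posterior ECs. The one at 71.7 kb had 7.80 and 8.06 (anterior) and 5.43 and 4.70 (posterior), and the one at 109 kb 6.97 and 4.86 and then 4.94 and 4.29. Tjp1 itself had not passed the test in either lobe. Around Cgnl1 (chr9:71626509-71771602, minus strand) an intronic site 123 kb inside the gene had 5.40 and 5.56 in the WT cerebellum, 9.21 and 7.08 in stabilized anterior and 7.26 and 6.67 in stabilized posterior ECs, and Cgnl1 levels overlapped between genotypes in the posterior lobe. A gained site thus stood beside members that rose and beside members that did not pass the test.

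Around Cldn5 (chr16:18776847-18778262, plus strand) the start was open in all 12 libraries. Its fold enrichment in cerebellum ECs was 11.5 and 9.97 (WT) against 14.2 and 13.1 (stabilized), 6.01 and 8.72 against 9.57 and 10.8 in the anterior lobe, and 3.82 and 3.79 against 9.54 and 9.82 in the posterior lobe. The posterior start peak was thus the weakest of the 3 in WT. Only 1 site near Cldn5 was gained, 48.7 kb upstream in the posterior lobe (2.88 and 4.15). The start peaks of Cldn12, Cgn and Cgnl1 were also held by all 12 libraries, and no site was gained near Cldn12.

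**Figure D5:**
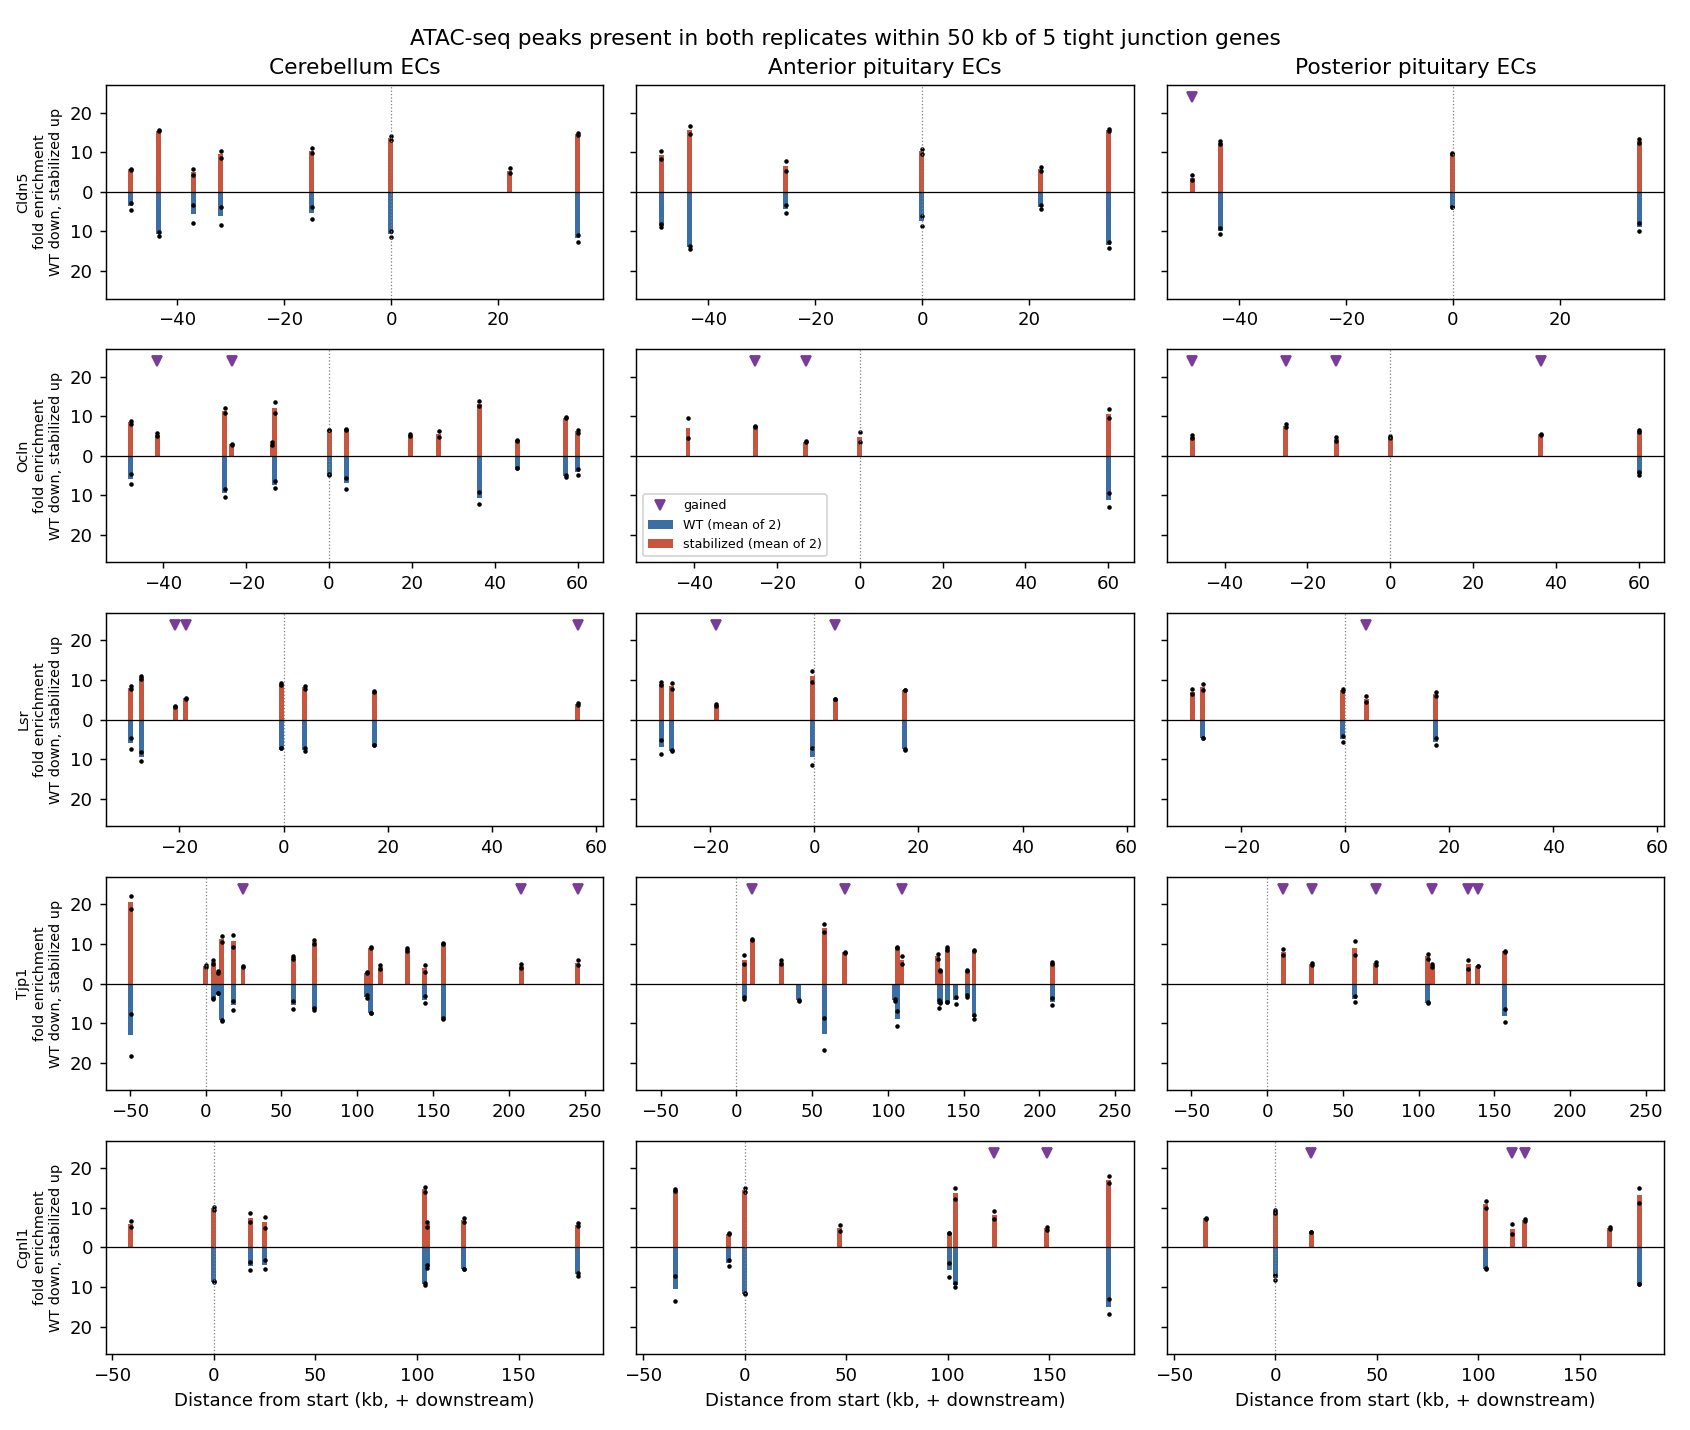
Sites near Cldn5, Ocln, Lsr, Tjp1 and Cgnl1 in the 3 sorted tissues, by distance from the gene start in kb (x axis) and fold enrichment (y axis), with stabilized ECs drawn upward and WT ECs downward, bars for the mean of the 2 replicates, points for each replicate and triangles over gained sites. Gained sites have no WT bar in the tissue where they were gained, as at 25.2 kb upstream of Ocln (7.56 and 7.28 in the anterior and 7.14 and 7.95 in the posterior lobe).

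The sequences below are 201 bases around the summits of the gained sites described above, on the plus strand of GRCm38. They are shown because peaks were listed there in stabilized and not in WT ECs of the tissue where the site was gained. Capitals mark TTCAAAG and ATCAAAG, 7-letter words bound by TCF and LEF factors, the DNA-binding partners of beta-catenin, or their reverse complements CTTTGAA and CTTTGAT. Within 100 bases of the summit 8.1% of all 46245 sites held either word, and 9 of the 80 sites near members did (11.2%). The first 5 are sites of Ocln, Lsr and Tjp1 gained in both lobes, each with a peak in both WT cerebellum libraries. Of these only the last holds a word.
Ocln 25.2 kb upstream, chr13:100577817-100578017: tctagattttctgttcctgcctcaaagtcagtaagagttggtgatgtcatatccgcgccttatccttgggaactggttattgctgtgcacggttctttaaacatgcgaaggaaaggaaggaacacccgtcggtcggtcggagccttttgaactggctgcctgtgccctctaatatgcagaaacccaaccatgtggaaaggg
Ocln 13.1 kb upstream, chr13:100565677-100565877: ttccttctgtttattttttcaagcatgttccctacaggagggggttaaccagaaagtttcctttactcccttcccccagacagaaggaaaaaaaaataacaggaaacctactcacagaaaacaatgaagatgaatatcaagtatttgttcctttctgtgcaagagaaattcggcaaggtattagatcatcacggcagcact
Lsr intron, chr7:30969297-30969497: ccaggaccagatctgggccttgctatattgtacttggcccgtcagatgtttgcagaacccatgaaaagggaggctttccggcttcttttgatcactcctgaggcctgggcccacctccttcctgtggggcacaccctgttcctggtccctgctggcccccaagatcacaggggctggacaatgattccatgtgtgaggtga
Tjp1 10.6 kb, chr7:65517069-65517269: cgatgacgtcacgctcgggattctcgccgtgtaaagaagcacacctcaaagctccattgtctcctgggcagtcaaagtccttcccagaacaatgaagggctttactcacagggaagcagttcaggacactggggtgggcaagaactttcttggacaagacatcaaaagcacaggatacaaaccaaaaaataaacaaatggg
Tjp1 71.7 kb, chr7:65456013-65456213: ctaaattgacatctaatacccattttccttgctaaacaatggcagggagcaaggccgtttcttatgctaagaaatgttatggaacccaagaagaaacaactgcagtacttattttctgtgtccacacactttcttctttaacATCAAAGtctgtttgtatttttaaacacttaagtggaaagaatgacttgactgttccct

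The site upstream of Lsr that appeared in stabilized cerebellum and anterior pituitary ECs holds 2 copies of the word, and the Cgnl1 site gained in both lobes holds 3, of which the last 2 stand 1 base apart. They are shown as the gained sites with the most copies, together with a site downstream of Tjp1, 246 kb from its start, that was gained in the cerebellum only (5.86 and 4.75).
Lsr 18.8 kb upstream, chr7:30992181-30992381: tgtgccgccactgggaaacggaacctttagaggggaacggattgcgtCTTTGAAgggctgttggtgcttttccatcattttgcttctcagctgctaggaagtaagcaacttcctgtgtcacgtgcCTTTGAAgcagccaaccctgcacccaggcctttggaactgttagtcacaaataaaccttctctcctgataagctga
Cgnl1 intron 123 kb, chr9:71648546-71648746: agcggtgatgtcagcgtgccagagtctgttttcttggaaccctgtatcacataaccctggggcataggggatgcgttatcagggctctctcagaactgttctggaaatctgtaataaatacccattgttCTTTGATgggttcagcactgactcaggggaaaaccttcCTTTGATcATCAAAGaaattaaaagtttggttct
Tjp1 246 kb, chr7:65282122-65282322: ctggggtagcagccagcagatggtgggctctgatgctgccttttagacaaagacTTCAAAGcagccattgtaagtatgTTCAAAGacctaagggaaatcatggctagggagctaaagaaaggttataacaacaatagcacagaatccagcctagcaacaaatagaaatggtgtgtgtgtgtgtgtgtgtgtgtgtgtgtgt

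Among gained sites near members, 4 of 15 in the posterior lobe held a word (15.2% of all gained sites there did), 3 of 9 in the anterior lobe (22.3%) and 2 of 9 in the cerebellum (12.4%). None of the 12 RefSeq promoter windows of the members (250 bases before to 50 after a start, GRCm38) held either word, against 8.65% of 32851 such windows. That of Cldn5, whose start was open in every library, is shown as the promoter of the member that rose in both sorted ECs and Bound RNA, with the 250 bases before its start on the plus strand.
Cldn5 promoter, chr16:18776597-18776846: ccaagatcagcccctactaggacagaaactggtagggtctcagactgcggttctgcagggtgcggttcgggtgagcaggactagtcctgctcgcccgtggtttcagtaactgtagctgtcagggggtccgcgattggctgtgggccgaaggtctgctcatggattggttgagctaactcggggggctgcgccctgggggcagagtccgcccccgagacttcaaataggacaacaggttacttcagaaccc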

How the data were processed

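The authors quantified single-end RNA-seq reads, made from amplified cDNA, with Salmon 0.10.2 (sequence, GC and position bias corrections) against Ensembl 92 transcripts of GRCm38, and deposited estimated counts and TPM per transcript. ATAC-seq reads were aligned with Bowtie2 2.3.2, duplicates were marked with Picard, and peaks were called per sample with MACS2 2.1.1.20160309, whose deposited lists give a fold enrichment and a −log10 q-value per peak. The submitters' processing notes also name kallisto 0.44.0 and deepTools. Salmon detected the library type itself and gave incompatible mappings no weight. Which type it found is not given in the sources used here, so reads of overlapping genes, such as Fam187b next to Lsr, may be mixed.

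Estimated counts were summed per gene and rounded. Reads without a gene name (0.0588 to 0.385% of a library) were left out. Fits used edgeR 4.0.16 (TMM, filterByExpr, quasi-likelihood test) in R 4.3.3, each over all groups of a fraction, with Benjamini-Hochberg adjustment over all genes tested, in 23 comparisons. Scripts were tested on simulated data. CPM are not TMM-scaled, so a fitted difference can depart from the ratio of CPM. DESeq2 1.42.0, no filter, size factors, effective lengths as an offset, a replicate block, fits on the compared groups alone and leaving out each library were tried. The last leaves 1 library in a group, assumed to vary like the other groups. Peaks with a fold enrichment over 2 and −log10 q over 2 were kept, and overlap by 1 base counted as shared. Sites were annotated with GENCODE M21.

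Same-numbered Bound and Input libraries of a group deviated together in all 4 groups (correlations 0.131 to 0.244), as paired libraries would. The main fits held no term for pairs of fractions. Named were the 8 members, other tight junction genes called and at 10 TPM or more in both libraries of the higher group (up to 6 a comparison), the 3 genes most like each member among those at 10 TPM or more in at least 2 libraries, gained and lost sites, and the strongest WT cerebellum peaks. Members and gene lists were chosen with earlier results of these data known. Protein sequences were not used here. One gene that the naming rule selects is not reported here.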

Additional observations from a re-analysis of the deposited data

Results flagged for a closer look

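The gain of Cldn5 with beta-catenin stabilization differed between choroid plexus and cortex Bound RNA by 2.09 on the log2 scale (SE 0.43, edgeR adjusted p = 0.0428), tested as an interaction over 2 libraries a group. Cldn5 stood at 23.2 ± 2.57 CPM in WT and 240 ± 20.7 in stabilized choroid plexus, and at 145 ± 69.6 and 309 ± 6.98 CPM in cortex. The value was called in 8 of 14 alternatives and ranged from 1.59 to 3.45, the highest with effective lengths as an offset, under which the cortex response itself was -0.27. The call was lost with the replicate block and on leaving out 5 of the 8 libraries in turn.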

How the results depend on the processing

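Counts below are members called of 8 under each alternative. The share of all genes called under each alternative is not given, so a higher count of members cannot be set against it. With DESeq2 instead of edgeR, the responses to stabilization gave 1 in cerebellum ECs, 1 in anterior pituitary ECs, 1 in cerebellum GFPneg cells, 4 in choroid plexus Bound and 3 in cortex Bound RNA, and 3 for the difference between the last 2. Without a filter on low counts these counts were 1, 3, 1, 5, 3 and 3, with 2 for the difference between pituitary lobes, 6 for stabilized posterior pituitary against WT cerebellum ECs and 6 for GFPpos against GFPneg in the anterior pituitary. With effective lengths as an offset they were 1 in anterior pituitary ECs, 3 for WT cerebellum against anterior pituitary ECs, 1 for stabilized posterior pituitary against WT cerebellum ECs, 3 for cerebellum GFPpos against GFPneg, 1 in choroid plexus Bound, 1 in cortex Bound, 2 for the difference of these, 0 in choroid plexus Input and 1 in cortex Input. That offset turned Tjp1 in posterior pituitary ECs to -0.048 and Cldn5 in the cortex to -0.27 in Bound and -0.27 in Input. Fits on the compared groups alone gave 1 in posterior pituitary ECs, 3 for WT cerebellum against posterior pituitary ECs, 6 for stabilized posterior pituitary against WT cerebellum ECs, 3 and 2 for GFPpos against GFPneg in cerebellum and posterior pituitary, 5 in choroid plexus Bound and 1 in cortex Input.

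Replicate numbers were also fitted as a block. Between genotypes same-numbered libraries did not deviate together (correlations -0.336 to 0.059), so the numbers show no pairing there. GFPpos and GFPneg deviated together in some groups, such as WT cerebellum (0.159) and WT posterior pituitary (0.129), and not in others (down to -0.039). A weak correlation does not exclude that the numbers pair these fractions. The replicate block gave 1 member in anterior pituitary ECs, 0 for the difference of Bound responses and 0 in choroid plexus Input. It added Cgn to choroid plexus Bound against Input and left 4 of 5 members between WT cortex and choroid plexus Bound RNA and 2 of 3 in cortex Input.

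Leaving out each library in turn gave 0 to 1 members called in cerebellum ECs, 1 to 3 in anterior and 3 in posterior pituitary ECs. It gave 4 to 6 and 5 to 6 for WT cerebellum against anterior and posterior pituitary ECs, 0 to 1 between the WT lobes, 0 to 2 and 3 to 5 for stabilized posterior and anterior pituitary against WT cerebellum ECs, and 0 to 2 for the difference between lobes, where Lsr ranged from -3.72 without WT anterior replicate 1 to 8.71 without WT posterior replicate 1, both set by the prior count since no WT read of that lobe was left. For GFPpos against GFPneg it gave 5 to 6, 2 to 4 and 5 to 7 in cerebellum, anterior and posterior pituitary, and for GFPneg cells 0 to 1 in cerebellum. For choroid plexus Bound it gave 1, for cortex Bound 0 to 4, between them in WT 3 to 5, for the difference of their responses 0 to 3, for Bound against Input 6 to 7 in cortex and 3 to 4 in choroid plexus, and for Input 0 to 1 in choroid plexus and 1 to 2 in cortex. Gained sites near members numbered 13 in the cerebellum, 9 to 14 in the anterior and 17 to 27 in the posterior lobe when 1 library was left out, the highest being 27 without stabilized posterior replicate 1 and 14 without WT anterior replicate 2. Since leaving out a library loosens the rule for a gained site, the numbers could hardly fall and are no check of stability.

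Other members' values kept direction and side of the threshold in 764 cases, passed it in 62 and lost it in 86. Another scaling moved the median of all genes by more than 0.1 in Bound against Input of the cortex (0.101 with size factors, 0.292 with lengths) and of the choroid plexus (-0.182 with lengths). With a pseudocount of 0.1, 12 of the 24 most similar genes were shared. Within 250 bases of the summit, 26.2% of the sites near members held a word, beside 17.8% of all sites. Causes of these shifts were not tested. In the libraries where a member had 0 reads, that count allows up to 0.247 CPM.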
